A study of Rattus norvegicus with 2 samples.

Results

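The miRNAs described here, called host-gene miRNAs below, are 8 mature miRNAs whose hairpins lie inside protein-coding genes: miR-378a-3p, miR-103-3p, miR-107-3p, miR-140-3p, miR-340-5p, miR-151-3p, miR-186-5p and miR-423-3p. They were selected by name for the place of their hairpins, and their reads in these same libraries were known when they were selected on that ground, so the values below describe them and test nothing. All 8 were found among the 406 rat miRNAs listed. The export of miRNAs to HDL was followed in INS-1 832/13 cells, a rat insulinoma line that secretes insulin and serves as a model of beta cells. INS-1-nHDL was native HDL (nHDL) from human plasma that was kept with these cells at 1 mg/mL and 3 mM glucose for 24 h, and cf-nHDL was the same material kept in medium without cells. By the labels, both were recovered from the medium by apoA-I immunoprecipitation, while the methods also name size-exclusion chromatography, and 3 samples of each were pooled into a single library (1 per condition). Differences between the conditions therefore have no replicate check, and all intervals cover counting error only, because PCR reads without molecular identifiers are not independent molecules.

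A miRNA inside an intron is usually transcribed as part of its host gene's RNA, cut out as a hairpin by Drosha and trimmed by Dicer to a duplex of a 5p and a 3p arm. One arm is then held by an Argonaute protein and pairs with target mRNAs through its seed, bases 2 to 8. HDL in plasma carries small RNAs, miRNAs among them, and beta cells can release miRNAs to it. Several of the hosts here belong to energy metabolism. Ppargc1b encodes a coactivator of mitochondrial genes, and the Pank genes encode pantothenate kinases, which control the first step of coenzyme A synthesis. miR-378a-3p is known for effects on mitochondrial metabolism, and miR-103-3p and miR-107-3p are known for effects on insulin sensitivity.

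The mature sequences are shown because the seeds set the miRNAs apart and because a single base separates 2 of them. They are the deposited sequences, written 5′ to 3′ as DNA with the seed in capitals.
miR-378a-3p: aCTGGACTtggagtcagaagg
miR-103-3p: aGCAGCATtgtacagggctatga
miR-107-3p: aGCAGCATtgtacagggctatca
miR-140-3p: tACCACAGggtagaaccacgg
miR-340-5p: tTATAAAGcaatgagactgatt
miR-151-3p: cTAGACTGaggctccttgagg
miR-186-5p: cAAAGAATtctccttttgggct
miR-423-3p: aGCTCGGTctgaggcccctcagt

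miR-103-3p and miR-107-3p share their seed, and no other miRNA in the table carries it. They differ by the substitution G22C, counted from the 5′ end of miR-103-3p, so 22 of 23 bases are the same. The seeds of the other 6 occur once each in the table. The sequences run from 27.3% GC in miR-340-5p to 65.2% in miR-423-3p, while the median of the 81 miRNAs kept for comparison was 47.6%. miR-423-3p was among the 4 kept miRNAs with the most GC, and miR-340-5p was the one with the least.

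On the rat build that the methods write as rno5, the deposited positions are chr18:55956665-55956685 (minus strand) for miR-378a-3p, chr1:260347524-260347546 (minus) for miR-107-3p, and both chr3:130329303-130329325 and chr10:20480402-20480424 (plus) for miR-103-3p, which has 2 hairpins. miR-140-3p lies at chr19:50471313-50471333 (plus), miR-151-3p at chr7:114421133-114421153 (minus), miR-186-5p at chr2:282781967-282781988 (minus) and miR-423-3p at chr10:62796798-62796820 (plus). miR-340-5p is listed at chr10:35327204-35327225 and chr10:35339321-35339342 (plus). In the RefSeq annotation of GRCr8, another rat assembly, the hairpin Mir378 lies within Ppargc1b, Mir107 within Pank1, Mir103a2 within Pank2 and Mir103a1 within Pank3. Mir140 lies within Wwp2, a ubiquitin ligase gene, Mir340-1 within Rnf130, which encodes a RING finger protein, Mir151 within Ptk2, the focal adhesion kinase gene, Mir186 within Zranb2, which encodes a splicing factor, and Mir423 within Nsrp1, which encodes a splicing regulator of nuclear speckles. Each hairpin has the strand of its host, except Mir151, whose strand was not examined here. For miR-186-5p and miR-423-3p the strand in GRCr8 is the opposite of the deposited one, and the positions of the assemblies are not interchangeable. The annotation used gives the span of each gene without its exons, so introns and exons were not told apart here. Mir423 lies 251 bases from the nearest listed start of Nsrp1 and Mir378 lies 2480 bases from that of Ppargc1b, and for the other 6 hairpins with a known strand the distance was 9640 to 118730 bases.

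The miRNA reads summed to 6585 for cf-nHDL against 18008 for INS-1-nHDL, of which miR-375-3p, the leading miRNA of beta cells, took 3.51% and 62.3%. Reads were rounded to whole numbers and divided by DESeq2 size factors (0.710 with cf-nHDL, 1.41 with INS-1-nHDL). A fold change of 1 thus stands for a ratio of reads of 1.98. Each fold change is a ratio of these normalized counts, INS-1-nHDL over cf-nHDL, with an exact (Clopper-Pearson) 95% interval. All 8 miRNAs passed the filter of 5 reads in 1 of the libraries or more, 4 of them through 1 library alone. Of the 8, 6 were above 1.5-fold, where 49.4% of the 81 miRNAs kept were, and 2 were below 1/1.5-fold, where 39.5% were. A miRNA with 0 reads in 1 library was counted as past the threshold. With those reads taken as 3, a choice made after seeing the data, 46.9% of the 81 were above 1.5-fold, 39.5% were below 1/1.5-fold, and the counts of the 8 stayed at 6 and 2. Under total miRNA reads, 4 of the 8 and 44.4% of the 81 were above 1.5-fold, and 2 of the 8 and 42% of the 81 were below 1/1.5-fold. Whole intervals passed 1.5 for 2 of the 8 and 30.9% of the 81, and 1/1.5 for 2 of the 8 and 29.6% of the 81. Because the miRNAs were selected with these values known, nothing is read from the shares of 75% and 25%.

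miR-378a-3p, from the Ppargc1b hairpin, had the most reads of the 8 on INS-1-nHDL. It ranked 17 by reads on cf-nHDL, with 33, and 10 on INS-1-nHDL, with 175. The normalized counts were 46.5 and 124, and the fold change was 2.67 (95% interval 1.83 to 4.0). The interval thus lay above 1.5 with these size factors, but not under total miRNA reads, where it began at 1.33. As a share of all miRNA reads, miR-378a-3p went from 0.501% (Wilson 95% interval 0.357 to 0.703%) to 0.972% (0.839 to 1.13%), and these intervals do not overlap. Its opposite arm, miR-378a-5p, and the related miR-378b had 0 reads in both libraries.

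miR-103-3p and miR-107-3p, from the Pank hairpins, have to be read together, since reads that matched both had been divided between them. The deposited values of miR-103-3p were 15.3 (cf-nHDL) and 51.3 (INS-1-nHDL) reads. For miR-107-3p they were 6.7 and 25.7 reads. miR-103-3p held 69.5% of the sum in the cf-nHDL library and 66.6% in the INS-1-nHDL library, so the division between them was nearly the same in both libraries. Summed, the pair had 77 reads on INS-1-nHDL against 22 on cf-nHDL, and its fold change was 1.76 (1.09 to 2.98). Taken singly, miR-103-3p had a fold change of 1.71 (0.948 to 3.28) and miR-107-3p of 1.87 (0.791 to 5.11), and both of these intervals hold 1. With the libraries scaled by total miRNA reads, the sum was at 1.28 (0.788 to 2.16), below 1.5. Export of miR-107-3p to nHDL from these cells was also measured by real-time PCR. The paper did not find that export to be significant. The raised value of the pair therefore rests on the sequencing counts alone.

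**Figure D1:**
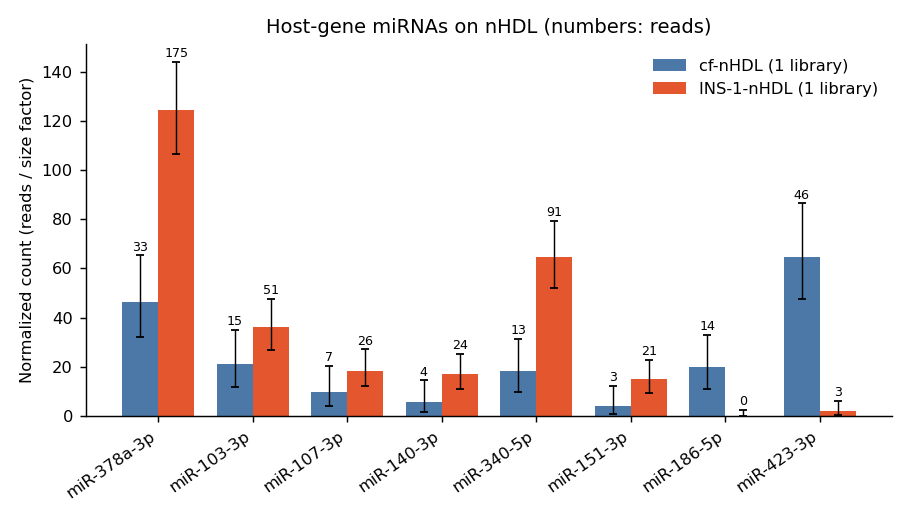
Normalized counts (reads divided by the size factor) of the 8 host-gene miRNAs, with 1 library each of cf-nHDL (blue) and INS-1-nHDL (orange). Error bars are exact Poisson 95% intervals and numbers above the bars are reads. miR-378a-3p, with 175 reads, stands highest on INS-1-nHDL, and miR-423-3p, with 46 reads, stands highest on cf-nHDL.

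miR-340-5p, with its hairpin Mir340-1 within Rnf130, had 91 reads on INS-1-nHDL against 13 on cf-nHDL. These reads may also come from its other listed position, whose host was not examined here. The fold change of 3.53 (1.96 to 6.88) also had its whole interval above 1.5, though under total miRNA reads the interval began at 1.42. It moved from rank 35 to rank 17. miR-151-3p, from the Ptk2 hairpin, had the same fold change of 3.53, but from 3 and 21 reads, and its interval ran from 1.05 to 18.5. miR-140-3p, from the Wwp2 hairpin, a miRNA best known from cartilage, had 24 reads on INS-1-nHDL against 4 on cf-nHDL and a fold change of 3.02 (1.04 to 12.0). The low ends of both intervals were close to 1, and under total miRNA reads both fell below it, to 0.764 for miR-151-3p and 0.754 for miR-140-3p. The opposite arms miR-340-3p, miR-151-5p and miR-140-5p had 0 reads in both libraries.

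The order of the raised values cannot be read from these counts. With miR-103-3p and miR-107-3p summed, the 5 raised values have intervals that all overlap, the highest low end being 1.96 and the lowest high end 2.98. The 2 lowered miRNAs had intervals that ended at 0.152 or below, so they do not reach those of the raised miRNAs, which began at 1.04 or above.

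miR-186-5p, from the Zranb2 hairpin, had 0 reads on INS-1-nHDL against 14 on cf-nHDL. By the limit of 3 reads, a count of 0 among 18008 reads allows a share of up to 0.0167%, and the Wilson interval ended at 0.0213%, against 0.213% (0.127 to 0.357%) on cf-nHDL. With 3 reads taken for INS-1-nHDL, it was at least 9.26-fold lower there, with the 14 reads taken as exact. The exact interval, which covers the counting error of those reads too, ended at a fold change of 0.152, or 6.58-fold lower.

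miR-423-3p, from the Nsrp1 hairpin, had the most reads of the 8 on cf-nHDL. It had 46 reads there, rank 14, and 3 reads on INS-1-nHDL, rank 72. The fold change was 0.0329 (0.00654 to 0.102), or 30.4-fold lower (9.78 to 153). As a share of all miRNA reads it went from 0.699% (0.524 to 0.930%) to 0.0167% (0.00567 to 0.0490%).

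**Figure D2:**
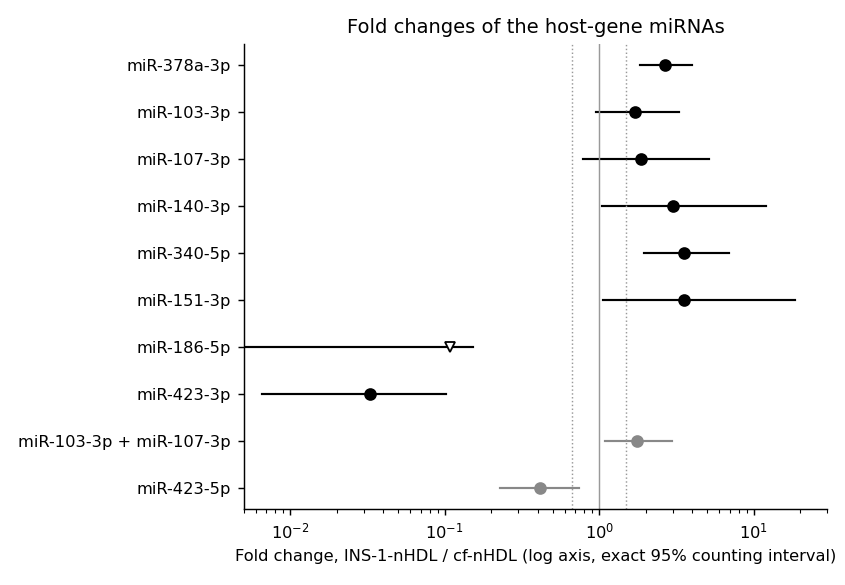
Fold change of each host-gene miRNA (black) and, in grey, of the sum of miR-103-3p and miR-107-3p and of miR-423-5p, on a log axis with exact 95% counting intervals. The open triangle of miR-186-5p is a bound, and its interval reaches 0 beyond the left edge. Dotted lines mark 1.5 and 1/1.5. With these size factors only miR-378a-3p and miR-340-5p have intervals entirely above 1.5, and miR-186-5p and miR-423-3p entirely below 1/1.5.

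miR-423 was the hairpin here with reads on both of its arms in the table, so the arms can be compared within each library, where no scaling enters. The RefSeq hairpin Mir423 (GRCr8, chr10:62412272-62412350, minus strand) is shown with the 5p arm (positions 11 to 34) and the 3p arm (positions 47 to 69) in capitals.
Mir423: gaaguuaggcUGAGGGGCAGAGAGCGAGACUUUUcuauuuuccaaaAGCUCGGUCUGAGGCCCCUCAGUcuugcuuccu

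The 5p arm, miR-423-5p, had 23 reads on INS-1-nHDL against 28 on cf-nHDL and a fold change of 0.414 (0.228 to 0.745). Both arms were therefore lower on INS-1-nHDL by the normalized counts, with intervals that do not overlap each other. On cf-nHDL, the 3p arm made up 62.2% of the 74 reads of both arms (Wilson 95% interval 50.8 to 72.4%). On INS-1-nHDL it made up 11.5% of 26 reads (4.0 to 29.0%). The majority arm of the hairpin was thus 3p in one library and 5p in the other. Unscaled, the ratio of miR-423-5p reads was 0.821. Its fold change moves with the scaling, but the share of the arms does not. Of the 9 opposite arms looked for, 5 are in the table and miR-423-5p was the one with reads. miR-186-3p, miR-107-5p and the 5p arms of miR-103 were not analysed here.

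The make-up of the host-gene miRNA reads also does not depend on scaling, but within a sum the share of one miRNA rises when others fall. The 8 miRNAs summed to 391 reads on INS-1-nHDL against 135 on cf-nHDL. That was 2.17% (1.97 to 2.39%) of the miRNA reads on INS-1-nHDL against 2.05% (1.73 to 2.42%), with overlapping intervals. With miR-375-3p left out of the total, the shares were 5.76% (5.23 to 6.34%) and 2.12% (1.80 to 2.51%). Within the sum, miR-423-3p was the largest part on cf-nHDL, at 34.1% (26.6 to 42.4%), and 0.767% (0.261 to 2.23%) on INS-1-nHDL. miR-378a-3p went from 24.4% (18.0 to 32.3%) to 44.8% (39.9 to 49.7%), and became the largest part. miR-340-5p went from 9.63% (5.71 to 15.8%) to 23.3% (19.4 to 27.7%). For these 3 miRNAs the intervals of the libraries do not overlap, and neither do those of miR-186-5p, at 10.4% (6.28 to 16.7%) and 0% (up to 0.973%). The sum of miR-103-3p and miR-107-3p, at 16.3% (11 to 23.4%) and 19.7% (16.1 to 23.9%), was not set apart, and the intervals of miR-140-3p and miR-151-3p overlapped as well. With miR-423-3p and miR-186-5p left out of the sum, a choice made after seeing the data, miR-378a-3p held 44% (33.3 to 55.3%) of 75 reads on cf-nHDL and 45.1% (40.2 to 50.1%) of 388 on INS-1-nHDL. miR-340-5p then held 17.3% (10.4 to 27.4%) and 23.5% (19.5 to 27.9%). These intervals overlap for both miRNAs, so their larger shares in the full sum were not set apart once the fallen miRNAs were left out.

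**Figure D3:**
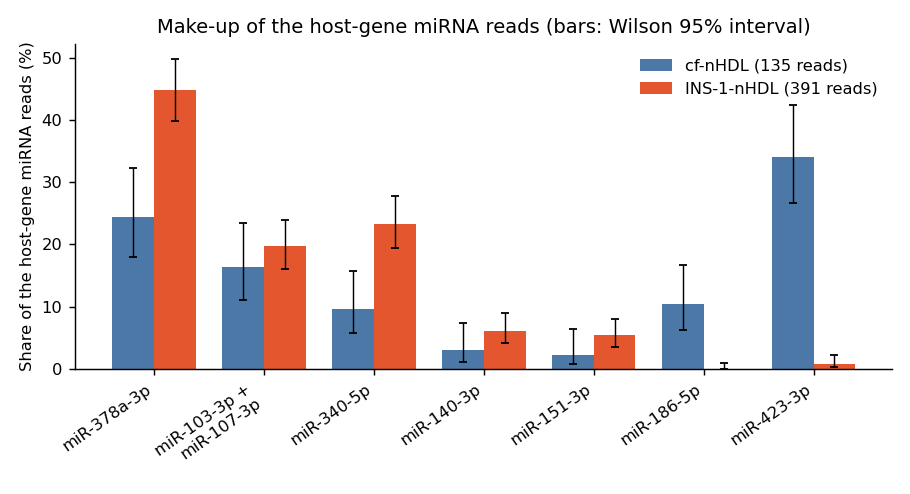
Share of each miRNA in the summed reads of the 8 host-gene miRNAs, in percent, in the libraries of cf-nHDL (135 reads) and INS-1-nHDL (391 reads), with Wilson 95% intervals as error bars. miR-423-3p and miR-186-5p make up 34.1% and 10.4% on cf-nHDL and under 1% each on INS-1-nHDL, while miR-378a-3p and miR-340-5p take larger shares of the sum there, where the other 2 have fewer reads.

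miR-103-3p and miR-107-3p belong to a wider group of miRNAs with the letters AGCAGC near the 5′ end, to which miR-16-5p and its relatives also belong. These letters begin at base 1 in miR-103-3p and miR-107-3p and at base 2 in the others, so the seeds are offset by a base. The lines below mark the letters in capitals to show the offset.
miR-107-3p: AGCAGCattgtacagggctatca
miR-16-5p: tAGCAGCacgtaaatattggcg
miR-15b-5p: tAGCAGCacatcatggtttaca

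The letters lie within the first 9 bases of 7 of the 406 listed miRNAs (1.72%) and of 3 of the 81 kept (3.70%), searched on the mature strand. The group did not move one way. miR-16-5p, whose hairpin lies within Smc4, had 741 reads on INS-1-nHDL against 2486 on cf-nHDL and a fold change of 0.150 (0.138 to 0.163), against 1.76 for miR-103-3p and miR-107-3p. miR-15b-5p had 2 reads in each library, and miR-195-5p, miR-322-5p and miR-497-5p had 0. Nor did other relatives of the host-gene miRNAs have reads: miR-28-5p, miR-28-3p and miR-708-5p, listed with the group of miR-151, were at 0 in both libraries.

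The other miRNAs inside protein-coding genes had fold changes on both sides of 1. Besides the 8 and their opposite arms, 72 miRNAs were kept, and 26 of these had a hairpin wholly inside a protein-coding gene on the same strand, while for 6 the strand of the hairpin or gene was not examined here. Of the 26, 10 (38.5%) were above 1.5-fold and 14 (53.8%) below 1/1.5-fold, or 9 and 14 with 0 reads taken as 3, which drops miR-652-3p with its 0 and 8 reads. The median fold change of the 26 was 0.617, that of the 8 was 2.27, and that of all 81 kept was 1.17, with 0 reads taken as 3 reads. The median of the 8 counts miR-103-3p and miR-107-3p singly. Because the 8 were selected with their values known, nothing is read from the gap between these medians. Scaling by total miRNA reads without miR-375-3p multiplies all of these medians by 1.86 and takes that of the 26 to 1.15. Among the raised ones, let-7f-5p, with 1 of its hairpins within Huwe1, had 13 and 78 reads and thus a fold change of 3.02 (1.67 to 5.93). Among the lowered ones, miR-26b-5p, within Ctdsp1, had 0 reads on INS-1-nHDL against 26 on cf-nHDL.

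**Figure D4:**
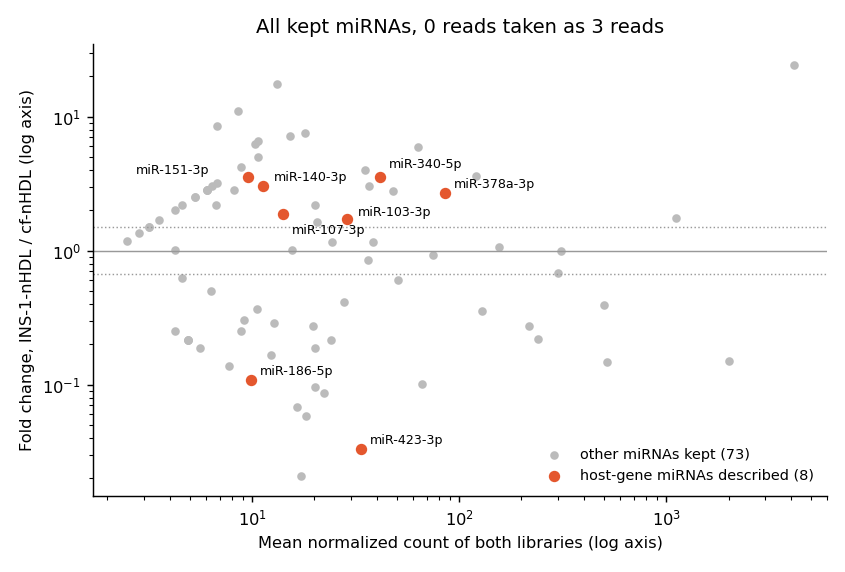
Fold change against mean normalized count, both on log axes, for the 81 miRNAs kept, with the 8 host-gene miRNAs labelled and 0 reads taken as 3 reads. Dotted lines mark 1.5 and 1/1.5. The 6 host-gene miRNAs with a fold change above 1.5, not all with intervals above 1, lie among many other such miRNAs of similar count. miR-423-3p lies near the lower edge of the plot.

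Among the 43 kept miRNAs with more than 3 reads in each library, the 3 whose log2 fold change was nearest to that of miR-378a-3p (1.42) were let-7i-5p at 1.47, let-7f-5p at 1.60 and miR-140-3p at 1.60. The nearest to miR-423-3p, at -4.93, were miR-148a-3p at -3.52, miR-451-5p at -3.37 and miR-141-3p at -3.31. miR-451-5p, a miRNA of red blood cells, had 26 and 5 reads. miR-423-3p itself has 3 reads on INS-1-nHDL and would not enter that set of 43. Among the miRNAs with 1 to 3 reads in a library, let-7g-5p, at -3.86 from 22 and 3 reads, and miR-125a-5p, at -5.57 from 24 and 1, were nearer to it.

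Listed markers of cell types also had different counts in the libraries. Some passed the filter through 1 library alone, so nothing is read from the numbers past a threshold. Of 8 miRNAs listed as markers of blood cells, 7 are in the table and 5 were kept. All 5 were below 1/1.5-fold, where 39.5% of the 81 miRNAs kept were. Their list summed to 756 reads on INS-1-nHDL against 2544 on cf-nHDL, or 15 against 58 without miR-16-5p, and miR-144-3p and miR-142-3p were at 0 in both. Of 12 miRNAs listed as beta-cell or neuroendocrine markers, 11 are in the table and 5 were kept. Of these 5, 4 were above 1.5-fold, where 49.4% of the 81 were, and miR-141-3p was below 1/1.5-fold. With 0 reads taken as 3, miR-183-5p, with 0 and 7 reads, drops out and 3 were above 1.5-fold, against 46.9% of the 81. That list summed to 11413 reads on INS-1-nHDL against 329 on cf-nHDL, or 194 against 98 without miR-375-3p, and miR-96-5p, miR-200b-3p, miR-200c-3p, miR-212-3p and miR-9a-5p were at 0 in both. The part of either in the values of the host-gene miRNAs was not tested. The nHDL was of human origin and the reads were matched to rat sequences, so reads of human and of rat origin cannot be told apart in these counts.

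The scaling between the libraries set the size of every fold change here. Total miRNA reads multiply all of them by 0.726, and unscaled reads by 1.98. miR-378a-3p was 1.94 (1.33 to 2.91) under total miRNA reads and 5.30 (3.64 to 7.94) with no scaling. miR-340-5p was 2.56 (1.42 to 4.99) and 7.0 (3.90 to 13.6). The intervals of both lay above 1 under each of these scalings, but under total miRNA reads neither lay wholly above 1.5. miR-423-3p reached at most 0.0652 (0.0130 to 0.203) and the bound of miR-186-5p at most 0.214, with an interval that ended at 0.301, both with no scaling, so both stayed below 1/1.5.

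**Figure D5:**
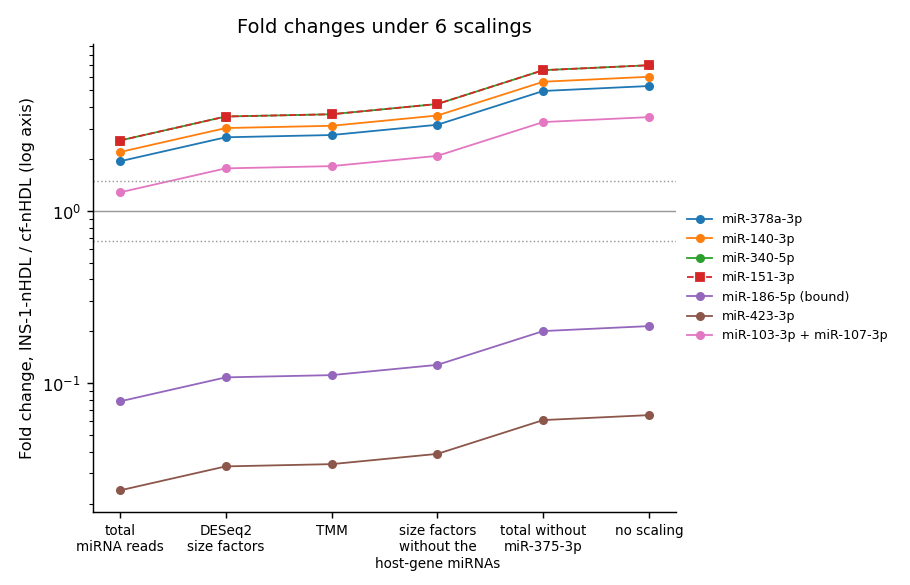
Fold change of 6 host-gene miRNAs and of the sum of miR-103-3p and miR-107-3p, on a log axis, under 6 scalings of the libraries. Dotted lines mark 1.5 and 1/1.5, miR-340-5p and miR-151-3p share a line, and miR-186-5p is a bound. All lines shift in parallel, and the sum of miR-103-3p and miR-107-3p falls below 1.5 under total miRNA reads, at 1.28.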

How the data were processed

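Small RNA libraries of cf-nHDL and INS-1-nHDL were analysed, 1 per condition. The authors removed adapters with Cutadapt, aligned reads to the rat genome with Bowtie 1.1.2 and 1 mismatch allowed, and deposited expected counts per mature miRNA without normalization; reads matching near-identical miRNAs were divided among them. The authors' own DESeq2 1.18.1 comparison of these libraries (base means, fold changes and p-values) was not used. No column of per-sample values was left unused. The 8 members, the marker lists and the rules for relatives were chosen with earlier results of these data known.

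Expected counts were rounded, and miRNAs with 5 or more reads in 1 of the libraries or both (81 of 406) were kept. Median-of-ratios size factors came from 56 miRNAs with reads in both (DESeq2 1.42.0, R 4.3.3). Exact intervals of ratios are conditional on the summed reads, and shares have Wilson intervals (scipy 1.17.1). Against 0 reads, 3 reads were taken. With 1 library per condition no test was run. The computation was checked on simulated counts. Alternatives were edgeR 4.0.16 TMM, total miRNA reads with and without miR-375-3p, no scaling, size factors from miRNAs with 10 or more reads in each library or without the 8 members, filters of 1 and 20 reads, unrounded reads and a pseudocount of 1, and, added after seeing the data, 0 reads taken as 3 at the threshold and shares without miR-186-5p and miR-423-3p. miRNAs named were the 8, their opposite arms, relatives by seed or group, and the listed markers. Also named were the 3 nearest in fold change to miR-378a-3p and to miR-423-3p. let-7f-5p, miR-26b-5p and miR-652-3p among the other miRNAs within genes were chosen after their values were seen. So were let-7g-5p and miR-125a-5p among those with few reads, and those in the closing section. Hosts came from the RefSeq gene table of GRCr8.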

Additional observations from a re-analysis of the deposited data

How the results depend on the processing

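No paired analysis was possible because there is a single library on each side (1 and 1), so none could be left out either. The direction of all 8 miRNAs held under the 6 other scalings, unrounded reads and a pseudocount of 1. Of the 6 above 1.5-fold, 4 stayed above it under total miRNA reads (44.4% of the 81 kept) and 2 when the whole interval had to pass it with the size factors used (30.9% of the 81). The number below 1/1.5-fold was 1 with a filter of 20 reads, which removes miR-186-5p. The share of all miRNAs past the threshold at that filter was not examined here, so nothing is read from that count. Without miR-375-3p in the total, the share of the 8 on INS-1-nHDL was 5.76%. For the 26 other miRNAs within genes, the median fold change was 1.15 when miR-375-3p was left out of the scaling total and 1.23 with no scaling. Both lie on the other side of 1. With the filter of 20 reads, which removes miRNAs and recomputes the size factors, 6 were above 1.5-fold and 7 below 1/1.5-fold. The number left and the shares over all miRNAs at that filter were not examined here, so these counts are not set beside those of the 26. Scaling moves the log2 fold change of every miRNA by one amount, from -0.46 under total miRNA reads to 0.99 with no scaling. Size factors computed without the 8 moved it by 0.24 and TMM by 0.04, while restricting the size factors to miRNAs with 10 or more reads in both libraries did not change them. Counts limit the rest: 4 of the 8 had under 5 reads in 1 library.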

Other observations

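Some of the other miRNAs within protein-coding genes share a host, and were looked at after their values were seen. The hairpins of miR-25-3p, miR-93-5p and miR-106b-3p lie within Mcm7, a gene of the DNA replication helicase. miR-25-3p had 58 reads on INS-1-nHDL against 25 on cf-nHDL and a fold change of 1.17 (0.720 to 1.95). For miR-93-5p the reads were 25 and 2, and the ratio was 6.30 (1.57 to 54.9). For miR-106b-3p they were 15 and 0, at least 2.52-fold higher with 3 reads taken for cf-nHDL, and the exact interval began at 1.81. Within Aopep, an aminopeptidase gene, miR-27b-3p had a fold change of 0.681 (0.577 to 0.804) and miR-23b-3p of 0.275 (0.124 to 0.580). Within Spaca6, miR-125a-5p had 1 read on INS-1-nHDL against 24 on cf-nHDL and a fold change of 0.0210 (0.000511 to 0.129), and let-7e-5p had 0 against 6. Within Mir100hgl, which the annotation lists as protein-coding, let-7a-5p had 8 against 14 and a fold change of 0.288 (0.105 to 0.736). There, miR-100-5p had 0 against 7. Within Huwe1, a ubiquitin ligase gene, let-7f-5p had a fold change of 3.02 and miR-98-5p went from 0 to 25 reads, at least 4.20-fold higher by the same rule, with an exact interval that began at 3.17. With no scaling, miR-27b-3p (343 against 254 reads) would stand above 1 and miR-23b-3p (12 against 22) below it, and no common direction is read for any of these hosts. Reads of let-7f-5p and of let-7a-5p can also come from a hairpin elsewhere, and all of these values rest on 1 library per condition.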
